A study of Mus musculus with 6 samples.

Results

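The phagocyte NADPH oxidase is the membrane enzyme with which neutrophils and macrophages turn oxygen into superoxide. A set of 6 of its subunit genes was followed by name: Cybb, Cyba, Ncf1, Ncf4, Rac1 and Rac2. All 6 of these genes were among the 16440 genes of the expression table, and all 6 passed the filter on low values that left 14595 genes tested. They were compared between 3 RNA-seq libraries of normal myeloid progenitors (MPs) and 3 of acute promyelocytic leukemia (APL) cells. The MPs were Lin-Sca-1-c-Kit+ cells sorted from mouse bone marrow. The APL cells were GFP-labeled c-Kit+ cells of hMRP8-PML/RARα transgenic mice, in which the human MRP8 promoter, active in myeloid cells, drives the PML/RARα fusion gene. They were on the FVB N/J strain, carried GFP from the MigR1 retrovirus and had been expanded by transplantation into syngeneic mice. The gate of the APL cells, GFP and c-Kit, thus differed from that of the MPs. Per the study's methods, labeling also took culture with cytokines and transfer into sublethally irradiated mice. Effects of leukemia, retrovirus, culture, irradiation of the recipients and transplantation cannot be told apart. The samples were deposited as 3 biological replicates per group, but separate mice are not stated, so the p-values measure the spread between these libraries, which may be technical in part.

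Each library held between 20608715 and 28382785 fragments before scaling, 22976905 to 26932327 in MPs, so that counting error was small for genes at the levels of the 6 subunits. MP library 3 stood further from MP libraries 1 and 2 than these from each other.

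The enzyme has a membrane part and a cytosolic part that come together when a phagocyte is activated. Cybb encodes gp91phox, the subunit that carries electrons from NADPH across the membrane, and Cyba encodes p22phox, its partner, with which it forms flavocytochrome b. Ncf1 encodes the organizer p47phox and Ncf4 encodes p40phox, both of which wait in the cytosol. Rac2 is the Rac GTPase of blood cells and Rac1 its widely expressed relative, and either one in its GTP-bound form takes part in the active complex. In the myeloid lineage the oxidase is known for appearing as cells mature from progenitors toward neutrophils and monocytes.

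Of the 6 subunit genes, 3 were higher in APL cells than in MPs by the test used throughout, a limma fit over all genes with a Benjamini-Hochberg adjusted p under 0.05 and a fold change over 1.5. These were Cyba (4.12-fold), Rac2 (2.03-fold) and Cybb (1.73-fold). Rac1 passed on the adjusted p but not on the fold, which made 4 of the 6 on the adjusted p alone, against 29.7% of all genes tested. Ncf4 and Ncf1 passed on neither, and 0 of the 6 were lower. Of all genes tested, 21.7% were called higher and 24.4% lower. In all, 5 of the 6 had all 3 APL libraries above all 3 MP libraries, against 31.1% of all genes tested, and the exception was Ncf1. In bulk samples of this kind, fewer cells of a type and less RNA per cell cannot be told apart.

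The promoters of the membrane subunits and of Ncf1 are shown because Cybb and Cyba rose and Ncf1 did not pass the test. They are RefSeq sequences on GRCm38.p6, all from the minus strand and written 5′ to 3′ as 280 bases, from 250 before the start of transcription to 30 after it. Of the 6 genes, 3 matched the RefSeq promoter table, and Ncf4, Rac1 and Rac2 did not. Capitals mark matches to the motifs GAGGAA or CCAAT, searched on both strands. GAGGAA is a longer form of GGAA, the core that PU.1 and related factors bind. The core GGAA alone was not searched or marked, and it occurs in these windows. The Cybb window lies at chrX:9469295-9469574, the Cyba window at chr8:122432911-122433190 and the Ncf1 window at chr5:134229596-134229875.
Cybb: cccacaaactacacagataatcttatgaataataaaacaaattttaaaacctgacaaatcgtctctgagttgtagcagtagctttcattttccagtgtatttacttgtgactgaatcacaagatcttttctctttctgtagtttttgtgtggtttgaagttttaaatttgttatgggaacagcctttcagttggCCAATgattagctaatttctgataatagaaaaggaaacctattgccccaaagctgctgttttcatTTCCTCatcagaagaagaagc
Cyba: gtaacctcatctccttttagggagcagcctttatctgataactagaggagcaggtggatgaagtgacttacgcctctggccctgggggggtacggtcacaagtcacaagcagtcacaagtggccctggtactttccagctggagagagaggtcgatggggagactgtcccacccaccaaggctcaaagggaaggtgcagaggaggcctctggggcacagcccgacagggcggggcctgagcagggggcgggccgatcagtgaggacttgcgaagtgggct
Ncf1: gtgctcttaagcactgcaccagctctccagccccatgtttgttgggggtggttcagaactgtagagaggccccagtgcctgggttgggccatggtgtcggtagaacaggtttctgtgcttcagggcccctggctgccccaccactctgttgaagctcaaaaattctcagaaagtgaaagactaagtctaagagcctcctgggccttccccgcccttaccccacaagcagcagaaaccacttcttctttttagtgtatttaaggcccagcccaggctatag
The capitals of Cybb hold CCAAT 56 to 52 bases before the start, and GAGGAA on the opposite strand at bases 10 to 15 after it, with no overlap between them. The Cyba and Ncf1 windows hold neither motif on either strand, and no match says only that these letters are not in this window. Among 32851 RefSeq promoter windows of the same length, 26.0% held GAGGAA and 36.1% held CCAAT. The motifs were chosen with the Cybb sequence in view, and a match is a description of the letters, not of binding.

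Levels are given first as FPKM, the deposited fragments per length of transcript and depth of library, since only values per length can be compared between genes. The log2 fold changes and tests use the deposited fragment estimates, which are scaled by library, as log2(scaled fragments + 1). The pseudocount shrinks the fold of low genes, but all 6 subunit genes lay far above it.

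Cyba (Entrez 13057, chr8:122424771-122432940) had 127, 106 and 136 FPKM in MP libraries 1 to 3. It had 462, 591 and 490.3 FPKM in APL libraries 1 to 3. The lowest APL library lay well above the highest MP library, and the means were 123 ± 15.6 and 514 ± 67.4 FPKM (SD, n = 3 each). On the log2 scale Cyba rose by 2.04 (SE 0.14, 95% interval 1.72 to 2.37) with a limma adjusted p of 2.6e-06. Of all genes tested, 6.82% had a larger log2 fold change.

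Cybb (Entrez 13058, chrX:9435252-9469324) had 28.4, 17.6 and 22.8 FPKM in MP libraries 1 to 3. Its APL libraries 1 to 3 had 41.6, 39.2 and 35.4 FPKM. All APL libraries were above all MP libraries, and the MP libraries were spread more widely. The means were 22.9 ± 5.42 and 38.8 ± 3.14 FPKM (SD, n = 3 each). Cybb rose by 0.79 on the log2 scale (SE 0.15, 95% interval 0.44 to 1.14), with a limma adjusted p of 0.0016.

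Both membrane subunits rose, but by different amounts. The ratio of Cybb to Cyba in FPKM, which does not depend on how libraries are scaled, was 0.223, 0.166 and 0.167 in MP libraries 1 to 3. It was 0.0900, 0.0665 and 0.0722 in APL libraries 1 to 3. Every APL ratio was below every MP ratio, and the mean ratio was 2.43-fold lower in APL cells.

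Ncf1 (Entrez 17969, chr5:134220260-134229625) had 65.7, 45.8 and 55.5 FPKM in MP libraries 1 to 3. It had 50.6, 55.4 and 52.1 FPKM in APL libraries 1 to 3, all of which lay within the range of the MP libraries. The means were 55.7 ± 9.95 and 52.7 ± 2.46 FPKM (SD, n = 3 each). The log2 fold change was -0.09 (SE 0.12, 95% interval -0.37 to 0.20, limma adjusted p = 0.56), an interval that leaves out changes as large as those of Cybb. The two-sided exact permutation test gave p = 0.7.

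Ncf4 (Entrez 17972, chr15:78244811-78262580) had 71.4, 50.5 and 62.0 FPKM in MP libraries 1 to 3. Its APL libraries 1 to 3 had 72.2, 78.2 and 78.1 FPKM. The groups did not overlap, but APL library 1 lay close to MP library 1. The means were 61.3 ± 10.5 and 76.2 ± 3.43 FPKM (SD, n = 3 each). The log2 fold change of Ncf4 was 0.31 (SE 0.13, 95% interval 0.02 to 0.59), with a limma adjusted p of 0.055, which did not pass.

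The ratio of Ncf1 to Ncf4, the 2 cytosolic subunits, varied little within a group. It was 0.921, 0.908 and 0.895 in MP libraries 1 to 3. APL libraries 1 to 3 gave 0.701, 0.709 and 0.668. The ratio was 1.31-fold lower in APL cells, and the groups did not overlap although each gene alone missed the test.

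Rac2 (Entrez 19354, chr15:78559169-78572783) had 109.6, 85.1 and 108 FPKM in MP libraries 1 to 3. It had 184, 209 and 208 FPKM in APL libraries 1 to 3, and no APL library came near the MP range. The means were 101 ± 13.6 and 201 ± 14.1 FPKM (SD, n = 3 each), and Rac2 rose by 1.02 on the log2 scale (SE 0.12, 95% interval 0.76 to 1.28, limma adjusted p = 5.8e-05).

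Rac1 (Entrez 19353, chr5:143505481-143527993) had 118, 115 and 132 FPKM in MP libraries 1 to 3. Its APL libraries 1 to 3 had 149, 164 and 170.2 FPKM. The groups did not overlap. The means were 122 ± 8.85 and 161 ± 10.9 FPKM (SD, n = 3 each), and the log2 fold change was 0.42 (SE 0.09, 95% interval 0.23 to 0.62). The limma adjusted p was 0.0022, but the fold of 1.34 was under the threshold.

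The ratio of Rac2 to Rac1 was 0.925, 0.738 and 0.816 in MP libraries 1 to 3. In APL libraries 1 to 3 it was 1.24, 1.28 and 1.22, so that Rac1 was the more abundant GTPase gene in every MP library and Rac2 in every APL library. The mean ratio was 1.51-fold higher in APL cells. The transcripts of Rac1 and Rac2 shared no run longer than 29 identical bases, and no other gene of the table overlapped the locus of any of the 6.

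**Figure D1:**
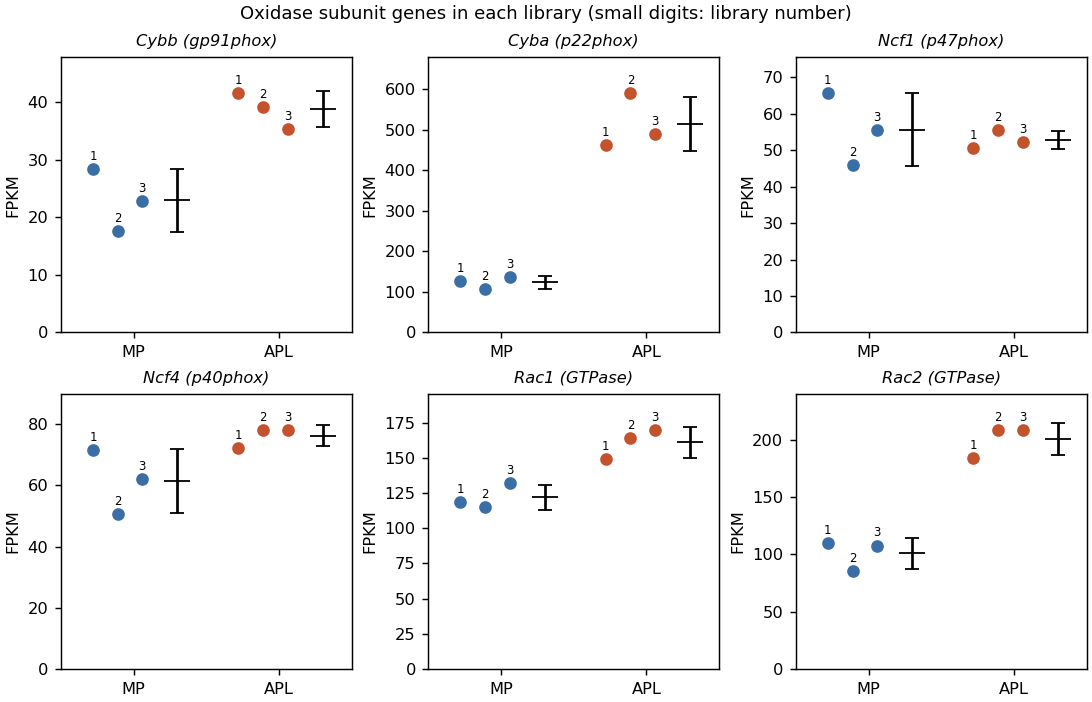
FPKM (y axis, from 0) of the 6 subunit genes in each library of MPs (blue) and APL cells (orange), with the library number above each point and the mean ± SD (n = 3) as a bar at the right of each group. Cyba, Rac2, Cybb and Rac1 show clear gaps between the groups, Ncf4 a narrow one and Ncf1 an overlap.

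Across the membrane and cytosolic parts, the ratio of Ncf1 to Cybb fell below the MP range in every APL library. It was 2.31, 2.61 and 2.43 in MP libraries 1 to 3. APL libraries 1 to 3 gave 1.22, 1.41 and 1.47, for a mean that was 1.8-fold lower. For each of the 4 ratios compared, the two-sided exact permutation test gave p = 0.1, the smallest that 3 against 3 libraries allow, and 0.1 after adjustment over the 4.

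**Figure D2:**
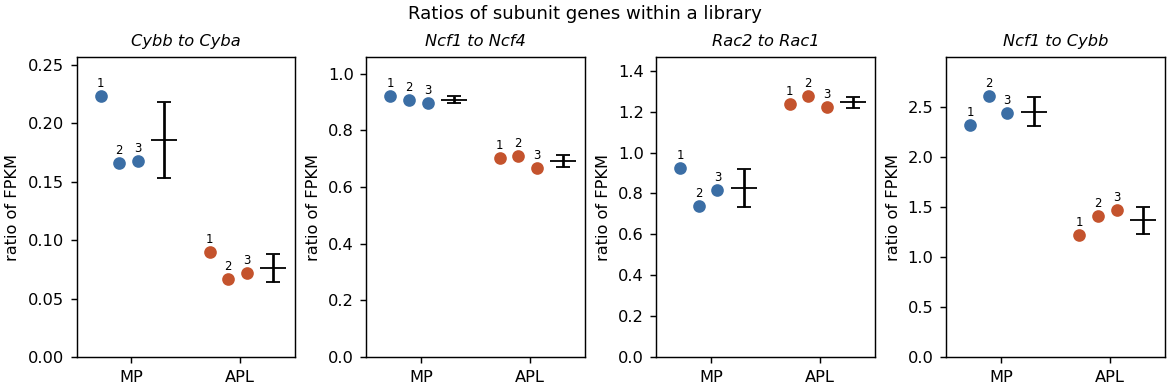
Ratios of FPKM between pairs of subunit genes (y axis) in each library of MPs (blue) and APL cells (orange), with the mean ± SD (n = 3) as a bar beside each group. The groups do not overlap in any of the 4 ratios, with Rac2 to Rac1 higher and the other ratios lower in APL cells.

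The order of levels, in FPKM, was therefore not the same in both groups. In MPs the means ran from Cyba (123) and Rac1 (122) through Rac2 (101), Ncf4 (61.3) and Ncf1 (55.7) to Cybb (22.9). The ranges of Cyba and Rac1 overlapped there, and which of them was higher differed between the MP libraries. The ranges of Ncf4 and Ncf1 overlapped too, but within each MP library Ncf4 was above Ncf1. In APL cells the order was Cyba (514), Rac2 (201), Rac1 (161), Ncf4 (76.2), Ncf1 (52.7) and Cybb (38.8), and no neighbours had overlapping ranges. Cybb was the lowest of the 6 in both groups.

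Within the MPs, library 2 had the lowest FPKM of all 6 subunit genes. Over all genes tested, library 2 was the lowest MP library for 34.5%. The summed scaled fragments of a list of 11 genes of maturing neutrophils, with lactoferrin and cathelicidin among them, were also lowest in that library, at 68971 against 117894 and 125277 in the others. The part of this in the spread of the subunit genes was not tested. Without MP library 2 the log2 fold changes were 0.62 for Cybb, 1.90 for Cyba, 0.39 for Rac1 and 0.90 for Rac2, and the same 3 genes were called. Those of Ncf1 and Ncf4 became -0.23 and 0.16, and neither was called.

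The chromosomes that carry the subunit genes did not behave alike, and the values are set beside each other here. On chromosome 8, which carries Cyba, 42% of the genes tested were called higher and the median log2 fold change of the others was 0.48. On chromosome 15, which carries Ncf4 and Rac2, 41.7% were called higher and the medians were 0.46. On chromosome 5, which carries Ncf1 and Rac1, 17.9% were called higher, and on chromosome X, which carries Cybb, 21.4%, with medians of -0.20 and -0.18. The median over all genes tested was -0.10. Cyba exceeded the median of its chromosome by 1.57 on the log2 scale, Cybb by 0.97, Rac1 by 0.62, Rac2 by 0.56 and Ncf1 by 0.11, and the difference of Ncf4 was -0.16. Single MP libraries moved the last 2 values: without MP library 1 they were 0.24 for Ncf1 and -0.0245 for Ncf4, and without MP library 2 they were -0.0222 and -0.29. Of the other genes of chromosome 8, 10.6% had a larger log2 fold change than Cyba, and of those of chromosome 15, 27.4% had a larger one than Rac2 and 58.5% a larger one than Ncf4. Each of the 4 ratios above set genes of different chromosomes against each other. Beside the chromosome medians, Rac1 (0.62) stood above Rac2 (0.56) and Ncf1 (0.11) above Ncf4 (-0.16), the reverse of the changes in their ratios. The Rac order depended on the setting. Without MP library 1 Rac2 (0.64) stood above Rac1 (0.60), as it did beside the 50 nearest genes on each side (0.50 and 0.48). Leaving out any other library kept Rac1 above Rac2. For Cybb to Cyba and Ncf1 to Cybb the direction was that of the ratios. The part of these chromosome shifts in the values and ratios of the subunit genes was not tested.

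**Figure D3:**
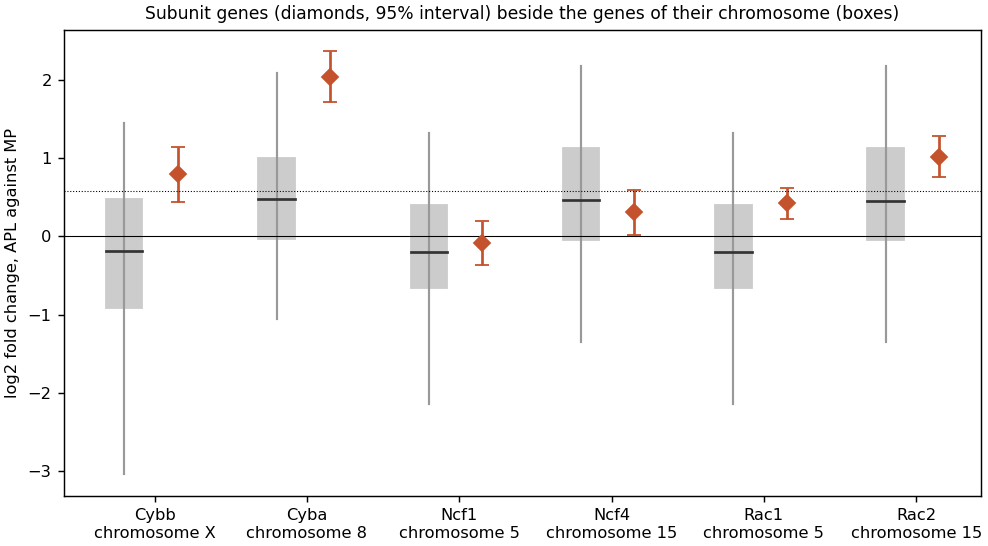
Log2 fold change, APL against MP (axis in log2 units), of each subunit gene (diamond with its 95% interval) beside the other tested genes of its chromosome (box from the lower to the upper quartile with the median as a line, grey whisker from the lowest to the highest decile), with a dotted line at a fold of 1.5. Cyba stands above the median of its chromosome by 1.57 and Cybb by 0.97, while Ncf1 and Ncf4 lie close to theirs.

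Ncf4 and Rac2 lie on chromosome 15, 296588 bases apart. The table held 11 genes from one to the other, of which 10 were tested, 6 were called higher and 0 lower. Of the 8 between them, 5 were called higher: Kctd17 (log2 fold change 3.24), C1qtnf6 (3.14), Csf2rb (2.70), Tst (2.30) and Csf2rb2 (2.06). Csf2rb encodes the common β chain of the IL-3, IL-5 and GM-CSF receptors and rose from 1933 ± 146 to 12536 ± 634 scaled fragments (SD, n = 3 each). Its near-identical copy Csf2rb2 rose from 361 ± 28.7 to 1506 ± 90.9, and how fragments were divided between the copies is uncertain. Mpst (0.51, limma adjusted p = 0.011), Tmprss6 (-0.51) and Il2rb (-0.99) were not called, and the latter pair had means under 10 scaled fragments in both groups. The median of the 8 was 2.18, so that Ncf4 (0.31) and Rac2 (1.02) lay below most of the genes between them. These 8 were named by their position, after the values were known.

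**Figure D4:**
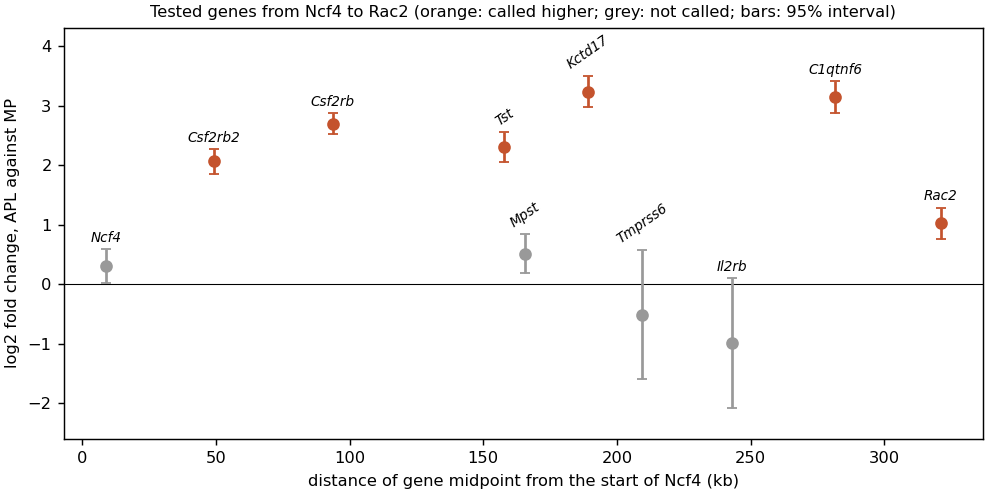
Log2 fold change, APL against MP (y axis), of the 10 tested genes from Ncf4 to Rac2 by distance of the gene midpoint from the start of Ncf4 in kilobases (x axis), in orange where called higher and grey where not called, with 95% intervals as bars. Ncf4 and Rac2 at the ends lie at 0.31 and 1.02, and 5 of the 8 genes between them lie above 2.

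The genes whose pattern over the 6 libraries was closest to each subunit were found by the root mean square difference of centred log2 profiles, among 10309 genes with a mean of at least 100 scaled fragments. Cybb was closest to I830077J02Rik (0.0665) and Mpeg1 (0.0987), the latter encoding perforin-2 of macrophages. Cyba was closest to Slpi (0.0553), a secreted inhibitor of neutrophil proteases, and H2-K2 (0.0773). Among the closest to Rac2 was Ffar2 (0.0490), a receptor for short-chain fatty acids. Rac1 was closest to Rcn1 (0.0221) and Gorasp2 (0.0342), of the secretory pathway. Ncf4 was closest to 9930012K11Rik (0.0410) and Stx11 (0.0762), a syntaxin, and Ncf1 to B4galt4 (0.0705) and 6430548M08Rik (0.0799). Among the 6 themselves the closest pairs were Ncf4 with Rac1 (0.160), Cybb with Rac2 (0.195) and Ncf1 with Ncf4 (0.201). Many other genes were closer than these partners. For the first pair they were 3.76% of genes seen from Ncf4 and 15.0% from Rac1. For the second pair they were 1.36% from Cybb and 6.38% from Rac2, and for the third 16.6% from Ncf1 and 13.1% from Ncf4. All of these distances share the same 6 libraries and are given as a description.

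Other genes of the oxidase pathway were described by lists, each set beside the share of all genes called (21.7% higher, 24.4% lower) and the median of -0.10 over all genes. Among 11 genes of oxidase assembly and stability, 5 were higher, 0 were lower and the median was 0.58. Hvcn1, the proton channel that offsets the charge moved by the oxidase, rose from 1512 ± 227 to 6220 ± 366 scaled fragments (SD, n = 3 each; log2 fold change 2.05, SE 0.11). Arhgdib, which holds Rac proteins in the cytosol, rose by 1.31, and Pdia4, a disulfide isomerase of the endoplasmic reticulum, by 1.22. Nrros, listed in the table as Lrrc33 and known as a negative regulator of reactive oxygen species, rose by 1.05. Rhog was the remaining one, named after its value was seen. Cybc1, listed as BC017643 and required for stable gp91phox and p22phox, had a log2 fold change of 0.13 (limma adjusted p = 0.12). Rac3, the third Rac gene, was low, at 32.6 ± 4.75 and 27.9 ± 3.96 scaled fragments.

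The regulators of Rac moved in both directions. Of 11 guanine nucleotide exchange factors, which load Rac with GTP, 3 were higher and 4 lower, with a median of 0.31. Prex1, a Rac activator of neutrophils, fell from 1957 ± 49.9 to 625 ± 23.3 scaled fragments (SD, n = 3 each; log2 fold change -1.64). Tiam2 (-3.04) and Vav2 (-1.03) also fell, while Vav1 (0.39) and Dock2 (0.43) had limma adjusted p-values of 0.0028 and 3.5e-04 but folds under the threshold. Prex2 was the other one lower and Tiam1, Dock5 and Vav3 were the 3 higher, named after their values were seen. Prex2 was very low in both groups, at means of 5.90 scaled fragments in MPs and 1.49 in APL cells. Of 8 GTPase activating proteins, which switch Rac off, 4 were higher and 1 lower, with a median of 0.46. Srgap2 rose by 1.01, Racgap1 by 0.79 and Arhgap1 by 0.71, and Abr and, as the lower one, Chn2 were named after their values were seen.

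Among 18 kinases and lipid enzymes that activate the oxidase, 3 were higher, 1 lower and the median was 0.10. Pik3cg, the PI3Kγ catalytic subunit, rose by 1.14 and Prkcb, a protein kinase C that phosphorylates p47phox, by 0.78. Mapk14, named after its value was seen, was the other one higher. Prkca fell from 215 ± 13.2 to 14.6 ± 6.28 scaled fragments (SD, n = 3 each; log2 fold change -3.87). Prkcd, at 0.42, had a limma adjusted p of 9.1e-04 but a fold of 1.34. Of 9 genes of the other NADPH oxidases and their partners, 3 had a value in the table and 1 was tested, Noxo1 (95.4 and 84.1 scaled fragments, not called).

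Enzymes that act on superoxide and peroxide gave 3 higher and 4 lower of 14, with a median of -0.14. Gsr, glutathione reductase, rose by 2.63 and lies on chromosome 8 like Cyba, as does Prdx2, which fell by 1.46. Mpo, the myeloperoxidase that makes hypochlorous acid from the peroxide, rose by 1.22. Sod1, the cytosolic superoxide dismutase, fell by 1.73 and Epx, the eosinophil peroxidase, by 2.51. Sod2 (-0.31) and Cat (0.04), the mitochondrial dismutase and catalase, were not called. Prdx5, higher, and Prdx1 and Prdx2, lower, were named after their values were seen. Of 11 genes that supply NADPH, 3 were higher, 0 lower and the median was 0.46, with Idh1 at 1.62, Pgd at 0.84 and G6pdx, which starts the pentose phosphate pathway, at 0.68.

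Of 14 transcription factors known for binding oxidase genes, 5 were higher and 5 lower, with a median of -0.06. Spi1, listed as Sfpi1, encodes PU.1, an activator of Cybb, and rose from 2280 ± 358 to 6294 ± 683 scaled fragments (SD, n = 3 each; log2 fold change 1.47). Irf8, which also acts on Cybb, fell from 2966 ± 398 to 97.6 ± 14.7 (-4.91), while Cebpd rose by 2.78. Hoxa9 had a mean of 239.5 in MPs and at most 1 fragment in any APL library, at least 73.0-fold lower against a floor of 3 fragments per library. Cebpe, a factor of neutrophil granule genes, had a log2 fold change of 0.24 and was not called. Cebpa and Cebpb, among those higher, and Hoxa10, Irf1 and Cux1, lower, were named after their values were seen.

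**Figure D5:**
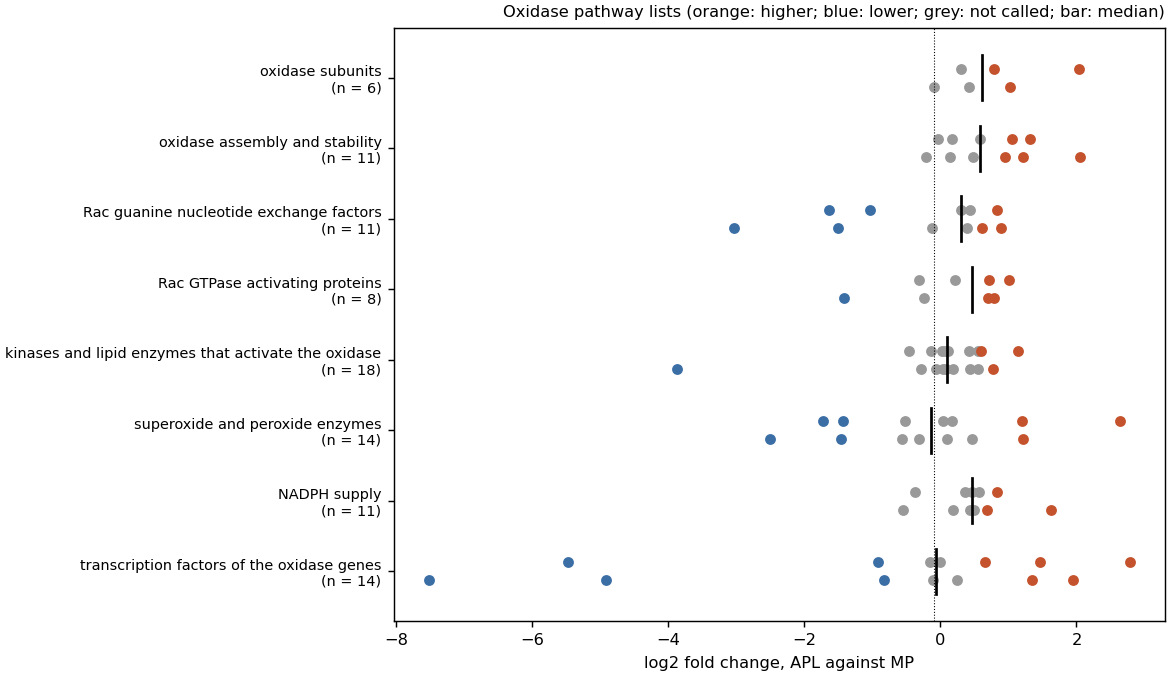
Log2 fold change, APL against MP (x axis), of each tested gene in the subunit list and 7 pathway lists, in orange where called higher, blue where called lower and grey where not called, with the median of each list as a bar and that of all genes (-0.10) as a dotted line. The medians run from -0.14 to 0.61, and genes of the Rac regulators, peroxide enzymes and transcription factors lie on both sides.

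Markers of cell types moved with the groups, and their part in the values above was not tested. Of 6 primary granule genes of promyelocytes, 4 were higher, and their summed scaled fragments were 316016 to 353485 in MPs and 797143 to 949310 in APL cells. Of 11 genes of maturing neutrophils, 3 were higher and 2 lower, with sums of 68971 to 125277 and 218342 to 225450. S100a8 and S100a9, calcium-binding proteins of neutrophils named after their values were seen, made up most of these sums and rose, while the other 9 genes summed to 27060 to 52736 in MPs and 24489 to 27856 in APL cells. In that list Itgam was also higher, and Ltf and Ngp, secondary granule genes, were lower. Of 10 monocyte and macrophage genes, 5 were higher and 4 lower, with sums of 6966 to 8546 and 32141 to 35054. F13a1, also named after its values were seen, held most of both sums, and the other 9 genes summed to 2835 to 3604 in MPs and 3781 to 3923 in APL cells. Erythroid genes were lower for 8 of 9, with sums of 53222 to 67992 in MPs and 238 to 399.6 in APL cells. Megakaryocyte genes were lower for 6 of 7, eosinophil genes for 6 of 6, dendritic cell genes for 4 of 6, and mast cell and basophil genes for 4 of 6 with 1 higher. B cell genes were lower for 3 of 5 with 1 higher, T and NK cell genes were called in neither direction for 3 tested, and endothelial and stromal genes gave 2 in each direction of 5. Batf3, Tpsb2 and Cd3g were at 0 in every APL library and Cd3e in every MP library. Of the genes used for sorting, Kit was at 10668 scaled fragments in MPs and 5929 in APL cells, Ly6a, which encodes Sca-1, at 27.2 and 43.4, and Cd34, a progenitor marker, at 6684 and 82.6.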

How the data were processed

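RNA-seq libraries of 3 MP and 3 APL samples were grouped by the submitters' labels. The authors deposited 1 table with FPKM values (per length of transcript and depth of library) and estimated fragments per gene, a signal that the deposited files hold scaled by library; 0 columns belonged to other samples. Per the labels, the submitters' processing notes name CASAVA 1.8, TopHat2 2.0.6 and the build mm10. The study's methods name STAR on mm9, HTSeq-count and DESeq2, and the tool that made the table is not given in the sources used here. Loci matched GRCm38, with 7057 of 16361 starts equal to RefSeq after adding 1 to the table's value, and coordinates are given counted from 1.

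As the values were not whole counts, limma 3.58.1 in R 4.3.3 (lmFit, eBayes with trend) was used on log2(scaled fragments + 1) for genes at 1 or more in at least 3 of the 6 libraries. Two-sided p-values were Benjamini-Hochberg adjusted over 14595 genes, and genes were called at adjusted p under 0.05 and fold over 1.5. Simulated data were made from the mean levels of these libraries, with a spread set in advance. Of 14595 genes, 200 were changed, each by more than any subunit gene except Cyba, and 91% of them were recovered. The recovery of changes as small as those of the other subunit genes was not simulated. Ratios and single genes were compared by a two-sided exact permutation test. Python 3.11.15 and matplotlib 3.10.9 were used for the figures.

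The subunit genes and lists were chosen with earlier results of these data known. Beside the subunits, the text names from each list the 3 called genes with the largest change and a mean of at least 100 scaled fragments, a fixed set of regulators, the 2 genes most like each subunit, and exceptions stated as such. Some other genes of the oxidase and of these lists are not reported here. The alternatives were other filters, pseudocounts of 0.5 and 10, other scalings, FPKM in place of fragments and voom weights. Further ones were unadjusted p-values, a fold over 2, a replicate block and leaving out each library. Centring on the median of all genes was added after the data were seen.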

Additional observations from a re-analysis of the deposited data

How the results depend on the processing

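Across the alternatives, 117 of 120 values of the subunit genes kept their direction and their side of the threshold. The other filters, the replicate block, unadjusted p-values and the fold over 2 leave log2 fold changes as they are, so no direction could change with them. At a fold over 2, Cybb (log2 fold change 0.79) was no longer called, which left 2 of the 6 genes called higher in place of 3. Ncf1, not called, changed sign to 0.0386 without MP library 1 and to 0.0131 when centred on the median of all genes, an alternative added after seeing the data. With FPKM, 1980 genes were called lower in place of 3558, of 11131 tested. Set beside the 50 nearest genes on each side, Rac1 differed by 0.48 in place of 0.62 from its chromosome's median. For Rac2 the difference was 0.50 in place of 0.56. Ncf4 had adjusted p-values by limma between 0.0174 and 0.202 over 17 settings, 5 of them under 0.05, but its fold never passed. Equal totals and voom weights moved the median over all genes tested by -0.13 on the log2 scale.

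Leaving out 1 library at a time gave log2 fold changes of 0.62 to 0.97 for Cybb, 1.90 to 2.18 for Cyba, -0.23 to 0.0386 for Ncf1, 0.16 to 0.42 for Ncf4, 0.38 to 0.49 for Rac1 and 0.90 to 1.09 for Rac2. Over all genes, 3016 to 3294 were then called higher and 3325 to 3586 lower, and the subunit genes called stayed at 3 higher and 0 lower.

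The replicate numbers 1 to 3 come from the labels alone. Correlations of deviations from the group means between same-numbered libraries were 0.214, 0.0416 and 0.209 over 10310 genes. Between libraries of different numbers they ran from -0.345 to 0.20, the highest being MP library 2 with APL library 1. The numbers were not taken to pair the samples, but these values do not exclude a pairing. A replicate block cannot change the log2 fold changes here, as each number occurs once per group. With the block, the limma adjusted p was smaller for each subunit gene, at 3.9e-05 for Cybb and 0.0209 for Ncf4. Ncf4 was not called, and 6673 of 6725 calls were shared. With 3 libraries per group an exact test cannot go below p = 0.1.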
